A study of Mus musculus with 9 samples.

Results

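The transcripts described here are those of the cytokines interleukin 6 (Il6) and interleukin 11 (Il11) and of the feedback inhibitors Socs1 and Socs3, measured in mouse lung. They were found by the gene symbols of the array's platform table, which gave 1 probe for each of the 4 genes among 10012 probes. Lung tissue was taken from 3 groups of 3 samples, each on an array of its own. One group had undergone mechanical ventilation at a pressure of 25 cmH2O for 3 h, called overventilation, and a second had received an injection of E. coli lipopolysaccharide (LPS, O127:BO serotype, 3 mg/kg), a component of the bacterial outer membrane that triggers innate immunity. The third group was the control, whose handling the labels do not describe. The labels give no strain, age, sex or time from the LPS injection to sampling. They also do not say that each sample is a different animal, so the p-values below reflect sample-to-sample spread that may be technical.

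Interleukin 6 is released in injured and infected lungs by macrophages, epithelium, endothelium and fibroblasts, and interleukin 11 is a relative of it. Both bind a private receptor chain and then share gp130, the product of Il6st, which activates JAK kinases and the transcription factor STAT3. STAT3 switches on Socs3, whose protein binds gp130 and JAK and stops the signal, while Socs1, best known as an interferon-induced gene, encodes a direct inhibitor of JAK kinases. A readout of both the ligands and the inhibitors thus covers the start of this pathway and its brake.

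The stretch before the transcription start of each gene is shown because it holds recognition motifs of factors discussed below, whose own transcripts were measured on the same arrays. Each sequence is the 250 bases before a RefSeq start (GRCm38.p6), 5′ to 3′ on the gene's strand, with motif matches in capitals. They lie at chr5:30012864-30013113 (+ strand) for Il6, chr7:4778142-4778391 (- strand) for Il11, chr16:10785537-10785786 (- strand) for Socs1 and chr11:117969367-117969616 (- strand) for Socs3.
Il6: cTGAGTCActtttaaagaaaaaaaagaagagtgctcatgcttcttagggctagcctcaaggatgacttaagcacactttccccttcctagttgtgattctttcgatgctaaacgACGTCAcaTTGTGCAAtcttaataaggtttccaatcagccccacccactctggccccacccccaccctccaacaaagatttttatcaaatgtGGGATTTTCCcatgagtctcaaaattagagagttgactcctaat
Il11: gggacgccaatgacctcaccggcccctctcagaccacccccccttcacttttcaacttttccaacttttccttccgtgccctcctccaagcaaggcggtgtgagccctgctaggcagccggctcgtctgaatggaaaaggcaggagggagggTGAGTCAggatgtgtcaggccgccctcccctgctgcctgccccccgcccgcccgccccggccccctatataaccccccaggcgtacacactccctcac
Socs1: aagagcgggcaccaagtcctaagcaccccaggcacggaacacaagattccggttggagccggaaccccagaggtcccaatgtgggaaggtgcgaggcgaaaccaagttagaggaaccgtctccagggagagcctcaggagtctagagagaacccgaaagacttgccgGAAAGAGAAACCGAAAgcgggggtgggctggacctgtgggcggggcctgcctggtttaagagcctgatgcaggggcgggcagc
Socs3: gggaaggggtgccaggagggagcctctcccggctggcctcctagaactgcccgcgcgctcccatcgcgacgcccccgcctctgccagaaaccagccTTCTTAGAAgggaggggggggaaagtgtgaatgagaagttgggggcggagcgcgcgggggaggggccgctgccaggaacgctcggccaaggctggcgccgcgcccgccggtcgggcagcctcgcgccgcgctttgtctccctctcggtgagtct
Both strands were searched for TGANTCA (AP-1), ACGTCA (the core of a cAMP response element), TTGNGCAA (C/EBP), TTCNNNGAA (STAT), the interferon regulatory factor motif and the NF-kB consensus. The Il6 window held an AP-1 match (TGAGTCA), the cAMP core, a C/EBP match (TTGTGCAA) and an NF-kB match (GGGATTTTCC) that begins 44 bases before the start. The Il11 window held the same AP-1 heptamer 98 bases before the start, and the window of a second RefSeq start of Il11 held none of the 6 motifs. In Socs1 there were 2 overlapping matches to the interferon regulatory factor motif, and in Socs3 there was 1 STAT match (TTCTTAGAA). Of 32817 windows of the same length, 6.75% held the AP-1 motif, 6.46% the cAMP core, 2.61% the C/EBP motif, 3.9% the NF-kB motif, 7.01% the STAT motif and 2.97% the interferon regulatory factor motif. A match describes the letters and does not show that a factor binds there.

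All values are log2 ratios to the mean of the 3 controls, which is 0 for every probe, so levels cannot be compared between genes. The deposited values carry a floor on each array, whose ratio differs from probe to probe, and no 2 arrays lay at the floor for any of the 4 probes. At least 8 of the 9 arrays were therefore above it for each gene, by at least 2.67 for Il6, 0.96 for Il11, 0.17 for Socs1 and 0.73 for Socs3 on the log2 scale. The distance of 0.17 is that of Socs1 on overventilation array 3, the array with the highest floor. The 1 array on which Il6 may lie at the floor is LPS array 2. All 4 passed the filter on low values and were among the 5710 probes tested. Each gene rests on a single probe. Probe pairs for 1 gene often diverged on these arrays, with a median r of -0.03 for the 66 genes that had 2 in the test.

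Il6 and Il11 had the largest mean differences of the 4 genes in overventilated lungs, about 4-fold above controls, and in both the groups did not overlap. Il6 lay at 2.52, 1.77 and 2.40 on overventilation arrays 1 to 3, against -0.13, 0.32 and -0.19 on control arrays 1 to 3. Every overventilated sample was above every control, with 1.45 between the lowest overventilated and the highest control sample. The mean of the overventilated samples was 2.23 ± 0.40 (SD, n = 3), against a control mean of 0 with an SD of 0.28. That is a 4.68-fold difference with a 95% interval of 1.08 to 20.3. It did not pass the test over all probes (limma, adjusted p = 0.306, unadjusted p = 0.0414).

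Il11 lay at 2.70, 1.48 and 1.89 on overventilation arrays 1 to 3, against -0.38, 0.83 and -0.44 in the controls. The second control was its highest, and still 0.66 below the lowest overventilated sample. The difference was 4.06-fold with a 95% interval of 1.90 to 8.67 (limma, adjusted p = 0.193, unadjusted p = 0.00214). Without overventilation array 2, on which Il11 was lowest, its log2 change was 2.29 with an adjusted p of 0.0463. Adjusted p ranged from 0.0463 to 0.655 over the 18 alternatives tried, and the one without array 2, which called 290 probes in all, was the only one of them under 0.05.

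Of the inhibitors, Socs3 was higher in each overventilated sample than in any control. It lay at 1.07, 0.90 and 1.87 on overventilation arrays 1 to 3, against 0.52, -0.04 and -0.48 in the controls. The distance between the groups was 0.38, smaller than for either cytokine, and the highest value came from overventilation array 3. The difference was 2.43-fold with a 95% interval of 1.21 to 4.89 (limma, adjusted p = 0.233, unadjusted p = 0.018).

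Socs1 lay at 0.71, 1.29 and 0.73 on overventilation arrays 1 to 3, against -1.09, 1.05 and 0.05 in the controls. The groups overlapped, since the second control was above overventilation arrays 1 and 3. The controls of Socs1 spread more widely than those of the other 3 genes, with an SD of 1.07 (n = 3). The difference of 1.88-fold had a 95% interval of 0.81 to 4.33 (limma, adjusted p = 0.478, unadjusted p = 0.124). Its log2 change of 0.91 became 0.36 without control array 1 and 1.43 without control array 2.

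Set against all probes, 3 of the 4 genes had groups that did not overlap and lay higher after overventilation, as did 9.18% of the tested probes, with 10.5% on the lower side. No probe passed limma at an adjusted p under 0.05 in this comparison (0.0% of 5710), and 14.9% had an unadjusted p under 0.05. Of all tested probes 6.2% were higher at that level, as Il6, Il11 and Socs3 were, and 8.69% were lower. The log2 changes of Il6, Il11, Socs3 and Socs1 were above those of 99.3%, 99.0%, 95.5% and 90.9% of tested probes. Overventilation array 3 had 110 probes more than 1.5 above all other arrays. Without it 11.3% of all probes were without overlap on the higher side and 13.5% on the lower. The same 3 genes were among those higher, which is no check of them. Leaving out an array cannot make groups overlap that are apart.

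**Figure D1:**
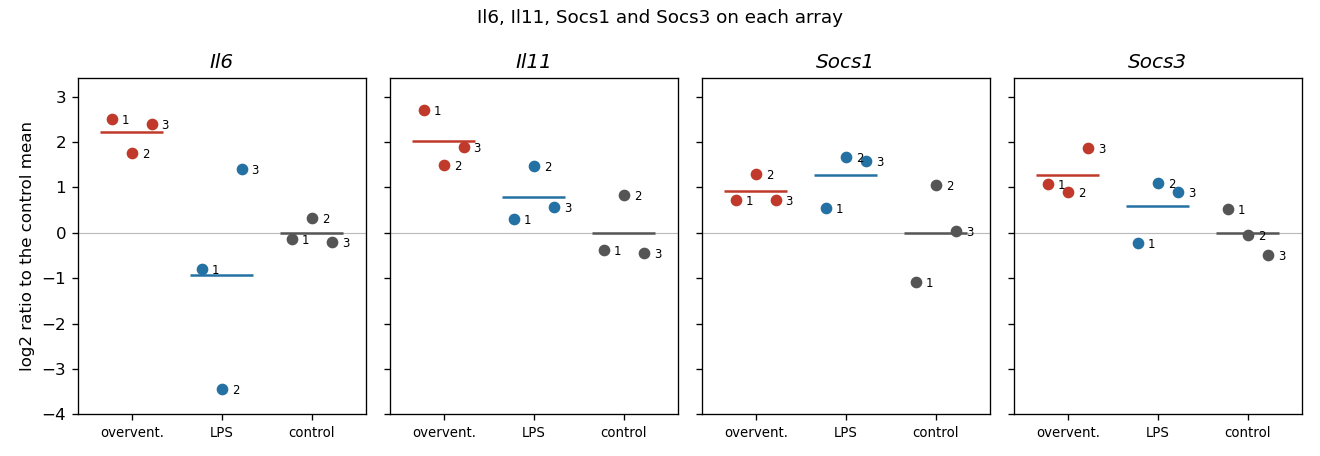
Log2 ratios to the control mean of Il6, Il11, Socs1 and Socs3 (vertical axis) on each of the 3 arrays of the overventilation (overvent.), LPS and control groups; points carry the array number and horizontal lines are group means. The overventilated samples lie above all controls for Il6, Il11 and Socs3, and Il6 on LPS array 2 stands alone at -3.43.

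After LPS none of the 4 genes had groups that were apart from the controls, and Il6 had no common direction. Il6 lay at -0.79, -3.43 and 1.41 on LPS arrays 1 to 3, against -0.13, 0.32 and -0.19 in the controls. Array 3 was above all controls, and arrays 1 and 2 were below them. The mean of the LPS samples was -0.94 ± 2.42 (SD, n = 3), and the log2 difference of -0.94 had a 95% interval of -3.06 to 1.18 (limma, adjusted p = 1, unadjusted p = 0.345).

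The low Il6 value decides the sign of that mean. It lies 2.64 below the next lowest of the 9 arrays. On LPS array 2, 291 of 5710 tested probes (5.1%) lay more than 1.5 below all other arrays, against 1 to 41 probes on the others. Of these 291 probes, 166 had a gap at least as wide as that of Il6, against at most 3 on any other array. Il6 was the single gene with such a value on LPS array 2 among the tested genes of the 7 pathway lists described below, and whether that array's pattern accounts for it was not tested.

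Without this value the remaining LPS arrays averaged 0.31 for Il6, a ratio of 1.24 to the controls with a 95% interval of 0.48 to 3.21 (limma, adjusted p = 1). The same omission narrowed the spread shared by all groups. The difference between overventilation and control stayed at 4.68-fold, with a 95% interval of 0.99 to 3.46 on the log2 scale (limma, adjusted p = 0.191, unadjusted p = 0.0028). The control and LPS levels of Il6 thus did not differ beyond their spread with or without LPS array 2.

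**Figure D2:**
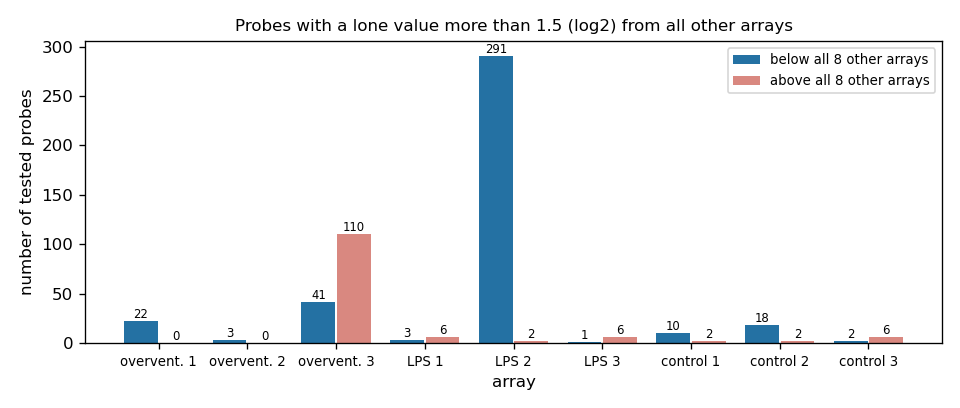
Number of tested probes (vertical axis) whose value on the named array lies more than 1.5 on the log2 scale below or above all 8 other arrays. LPS array 2 has 291 lone low values, the low Il6 value among them, and overventilation array 3 has 110 lone high values.

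Il11 lay at 0.31, 1.48 and 0.56 on LPS arrays 1 to 3, against -0.38, 0.83 and -0.44 in the controls. Arrays 1 and 3 were above 2 of the controls and below the second one. The ratio was 1.72 with a 95% interval of 0.81 to 3.68 (limma, adjusted p = 1, unadjusted p = 0.14).

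Socs1 had its highest group mean after LPS. It lay at 0.54, 1.67 and 1.58 on LPS arrays 1 to 3, against -1.09, 1.05 and 0.05 in the controls. LPS arrays 2 and 3 were above all controls, and array 1 was below the second control. The ratio was 2.40 with a 95% interval of 1.04 to 5.53 (limma, adjusted p = 1, unadjusted p = 0.0419).

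Socs3 lay at -0.22, 1.09 and 0.89 on LPS arrays 1 to 3, against 0.52, -0.04 and -0.48 in the controls. Here too arrays 2 and 3 were above all controls, with array 1 inside their range. The ratio was 1.5 with a 95% interval of 0.75 to 3.02 (limma, adjusted p = 1, unadjusted p = 0.223).

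None of the 4 genes was without overlap between LPS and control, where 2.24% of tested probes were on the higher side and 4.08% on the lower. No probe was called by limma at an adjusted p under 0.05 (0.0%), and 118 probes (2.07%) were at an unadjusted p under 0.05, with 0.998% higher, Socs1 among them, and 1.07% lower. Without LPS array 2 again none of the 4 was apart, beside 3.8% of probes on the higher side and 9.35% on the lower. Taken as pairs by array number, the LPS sample was above its control in 3 of 3 pairs for Il11, by 0.69, 0.65 and 1.01, and for Socs1, by 1.63, 0.62 and 1.53. Socs3 was higher in 2 of 3 pairs and Il6 in 1 of 3. The share of all tested probes higher in 3 of 3 pairs was not computed. Without it these counts do not set the 4 genes apart from other probes. Whether arrays of the same number are pairs was not tested either. With array number as a block over all 3 groups the adjusted p of limma was 0.826 for both Il11 and Socs1, 0.871 for Socs3 and 0.899 for Il6. None of the 4 passed. Within the LPS group, array 1 had the lowest values of Il11, Socs1 and Socs3. LPS array 2, the one with the low Il6 value, had the highest values of those same 3 genes.

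Overventilation and LPS were then compared directly. Il6 was higher in all 3 overventilated samples than in all 3 LPS samples, with 2.52, 1.77 and 2.40 against -0.79, -3.43 and 1.41. The ratio of 8.98 (95% interval 2.07 to 39.0, limma adjusted p = 0.494, unadjusted p = 0.00774) included the low value. Without it the ratio was 3.79, with a 95% interval of 1.46 to 9.84 (limma, adjusted p = 0.494). Without LPS array 3, the highest of the LPS samples, the log2 difference was 4.34, against 3.17 with all arrays. The groups of Il6 were apart with all arrays. Leaving out LPS array 2, the lowest of the LPS samples, could not make them overlap and is no check of this.

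For Il11 the groups barely separated. Its lowest overventilated sample, at 1.485, and its highest LPS sample, at 1.480, differed by 0.0049, and the ratio of the groups was 2.36 (95% interval 1.10 to 5.03, limma adjusted p = 0.494). Both cytokines thus had no overlap on the higher side, as 5.73% of tested probes had, with 5.46% on the lower side. Both had an unadjusted p under 0.05, as 9.51% of probes had, 3.57% higher and 5.94% lower. Without overventilation array 3 both stayed apart, as they had to, beside 7.13% of probes on the higher side and 7.01% on the lower. By limma at an adjusted p under 0.05 no probe was called (0.0%).

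The inhibitors overlapped in this comparison. Socs1 had a ratio of 0.78 (95% interval 0.34 to 1.81, limma adjusted p = 0.847), and Socs3 one of 1.62 (95% interval 0.80 to 3.26, limma adjusted p = 0.627). The intervals do not exclude differences of either sign. Without LPS array 2 Socs3 had no overlap either, when 13.5% of tested probes were on the higher side and 9.04% on the lower. By group means the order was overventilation, LPS, control for Il11 and Socs3, and LPS, overventilation, control for Socs1. Il6 had the order overventilation, control, LPS, which turned to overventilation, LPS, control without the low value. Overventilation and LPS share the controls as their baseline, so likeness of their changes is not given as a result.

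**Figure D3:**
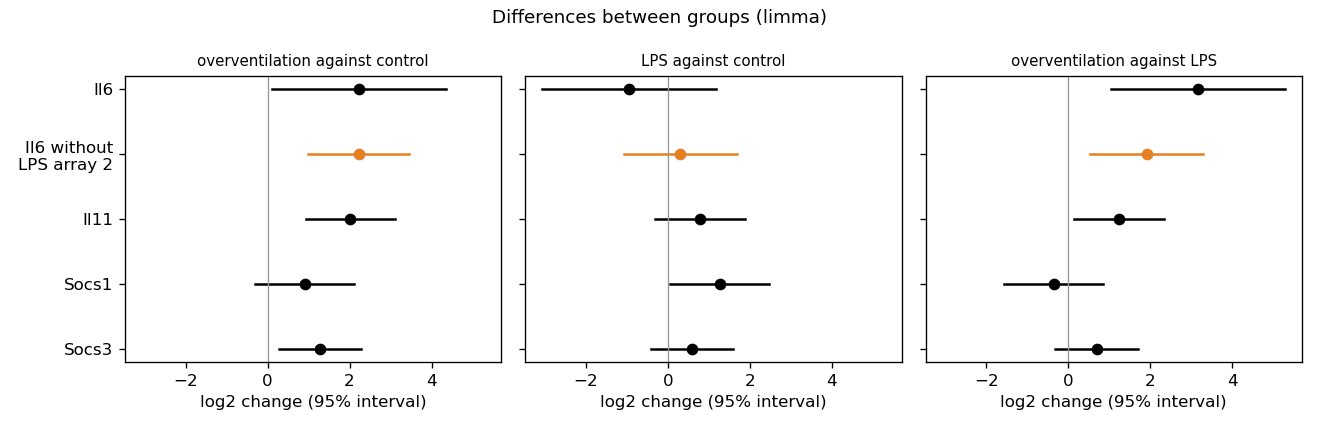
Log2 differences with 95% intervals (horizontal axis, limma over all 9 arrays) of the 4 genes in the 3 comparisons; orange marks Il6 with the value of LPS array 2 left out. In the comparison of overventilation with control the intervals of Il6, Il11 and Socs3 lie above 0, and none of the 4 passed the test over all probes.

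Lists of genes around the pathway show where else the arrays differed. Values come from the fit over all probes, with 1 probe per gene, and no gene in any list passed limma at an adjusted p under 0.05 in any comparison. Of 10 ligands of the interleukin 6 family, 5 were tested, and Il6 and Il11 were the ones whose overventilated and control samples did not overlap. The other 3 ligands had overlapping groups, while 9.18% of all tested probes were higher without overlap and 10.5% lower. Lif, the leukemia inhibitory factor gene, lay at 0.44, 0.42 and -1.12 after overventilation, against 0.09, -0.04 and -0.04 in controls. Ctf1, which encodes cardiotrophin 1, and Ebi3, a subunit of heterodimeric cytokines, had log2 changes of -0.28 and -0.24 in that comparison (limma adjusted p = 0.745 and 0.915). After LPS they were -0.01 for Ctf1 and 0.75 for Ebi3, with 0.10 for Lif. The median log2 change of the 5 ligands was -0.09 after overventilation and 0.10 after LPS, beside -0.01 and -0.05 over all tested probes.

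Of 8 receptor chains, 6 had probes and 2 were tested. Il6ra, the private receptor of interleukin 6, and Lifr, Cntfr and Il27ra were too often at the floor, and Il11ra1 was not analysed here. Il6st, the shared gp130 chain, lay at 0.53, -0.56 and -0.51 after overventilation, against 0.28, -0.03 and -0.25 in controls (limma adjusted p = 0.922). Its value of -1.85 was the lowest of the LPS samples and came from array 2. Osmr, the receptor chain for oncostatin M, which pairs with gp130, was the one receptor chain apart from controls. It lay at 0.75, 1.40 and 2.70 on overventilation arrays 1 to 3, at 0.43, 1.69 and 0.73 on LPS arrays 1 to 3, and at -0.26, 0.30 and -0.05 in the controls. All 3 overventilated and all 3 LPS samples were above all controls, with ratios of 3.07 (limma, adjusted p = 0.215) and 1.93 (limma, adjusted p = 1). After overventilation 9.18% of all tested probes were likewise higher without overlap and 10.5% lower. The shares after LPS were 2.24% and 4.08%.

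Among JAK kinases and STAT factors, 7 of 11 were tested, with median log2 changes of 0.21 after overventilation and 0.47 after LPS. After overventilation 1 of the 7 had no overlap with controls, beside 9.18% of all tested probes on the higher side and 10.5% on the lower. This was Stat2, a factor of type I interferon signalling, at 1.25, 1.31 and 2.86 against -0.96, 0.56 and 0.39 (3.50-fold, limma adjusted p = 0.214). Its value on overventilation array 3 was one of that array's 110 lone high values. Stat3, the main transcription factor of this pathway, lay at 0.33, 1.23 and 1.82 after overventilation, against -0.23, 0.52 and -0.29 in controls. The first overventilated sample was below the second control, and the ratio was 2.18 (limma, adjusted p = 0.297). A second Stat3 probe had a log2 change of 1.38, next to 1.13, and the 2 probes correlated at 0.93 over the 9 arrays. After LPS 1 of the 7 had no overlap, beside 2.24% of all tested probes on the higher side and 4.08% on the lower. This was Stat4, a factor of T helper cell signalling, at 0.68, 0.91 and 0.78 against -0.29, 0.17 and 0.12 (1.73-fold, limma adjusted p = 1).

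In the SOCS family, 5 of 8 genes were tested, and 1 of the 5, Socs3, had no overlap between overventilation and control, beside 9.18% of all tested probes on the higher side and 10.5% on the lower. Cish, the first SOCS gene found and a target of STAT5, lay at 0.08, 0.62 and 1.95 after overventilation, against -0.42, 0.11 and 0.31 in controls (limma, adjusted p = 0.43). Socs2, which limits growth hormone signalling, had log2 changes of 0.22 after overventilation and 0.09 after LPS, and Socs6 changes of -0.24 and 0.56. Socs5 was at the floor on all 9 arrays. The median log2 change of the 5 tested, Socs1 and Socs3 included, was 0.89 after overventilation and 0.56 after LPS.

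Other inhibitors of JAK-STAT signalling had no gene without overlap among the 5 tested of 10. Of the 5, 4 had lower means after overventilation than in controls. The median log2 change was -0.85 after overventilation and 0.10 after LPS. Both medians are the values of 1 Pias2 probe, and a second tested Pias2 probe had 0.20 and -0.30. Ptpn2, a phosphatase that removes phosphate from JAKs and STATs, lay at -3.34, 0.27 and -4.49 on overventilation arrays 1 to 3, against 0.16, -0.05 and -0.11 in controls. It was one of 139 probes that lay more than 1.5 below all other arrays on overventilation arrays 1 and 3 together, while its value on array 2 was above all controls. Ptpn11, the phosphatase SHP2, had a log2 change of -1.15 after overventilation and -0.43 after LPS, and Sh2b3, an adaptor that restrains JAK2, had 1.13 and 0.77.

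Of 32 STAT3 targets and acute phase genes, 13 were tested, and their median log2 change was 0.02 after overventilation and 0.36 after LPS. Among the 13, Hp, the haptoglobin gene, had no overlap between overventilation and control and was lower, with a log2 change of -0.21 (limma adjusted p = 0.871). Beside it, 10.5% of all tested probes were lower without overlap and 9.18% higher. Hp was picked out for that pattern and not by the naming rule. Myc, the growth regulator gene, lay at 1.24, 2.16 and 0.42 after overventilation and -0.05, 1.89 and 0.96 after LPS, against -0.36, 0.55 and -0.19 in controls. Vegfa, the vascular growth factor gene, lay at -7.50, -0.09 and -4.68 after overventilation and was another of the 139 probes low on arrays 1 and 3. Hpx, which encodes the heme carrier hemopexin, had log2 changes of 0.49 and 0.47.

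Of 22 regulators of Il6 transcription and mRNA decay, 12 were tested, with median log2 changes of 0.65 after overventilation and 0.14 after LPS. After overventilation 4 of the 12 had no overlap on the higher side, against the 9.18% of all probes given above. They were Fosl1, Atf3, Nfkb2 and Irf1, the last 2 of them picked for that pattern and not by the naming rule. Fosl1, a subunit of AP-1, lay at 1.57, 1.65 and 2.74 after overventilation, at -0.25, 0.89 and -0.25 after LPS, and at -0.19, 0.34 and -0.15 in controls. It was apart both from controls (3.97-fold, limma adjusted p = 0.193) and from LPS (3.62-fold, limma adjusted p = 0.494), as Il6 and Il11 were. Atf3, a stress-induced factor that binds cAMP response elements and restrains Il6 in macrophages, lay at 1.58, 1.91 and 4.56, against -0.08, -0.08 and 0.16 in controls (6.43-fold, limma adjusted p = 0.201). Like Fosl1 it was also apart from LPS (4.78-fold, limma adjusted p = 0.494). Beside these 2 of the 12, 5.73% of all tested probes were higher than LPS without overlap and 5.46% lower. The highest value of Atf3 was again a lone high value of array 3.

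Nfkb2, a subunit of NF-kB, had a ratio of 3.01 to controls after overventilation (limma, adjusted p = 0.214), and Irf1, an interferon regulatory factor, one of 1.88 (limma, adjusted p = 0.348). After LPS none of the 12 had groups without overlap. Cebpb, which encodes a C/EBP factor, lay at 1.06, 1.09 and 1.26 after LPS, against -0.32, 1.44 and -1.12 in controls, so that 1 control was above all LPS samples. Zfp36l1, a protein that promotes mRNA decay, had a log2 change of 0.92 after LPS and 0.62 after overventilation. Without overventilation array 3 Zfp36 and Zfp36l1 joined these 4, making 6 of 12, beside 11.3% of all probes.

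**Figure D4:**
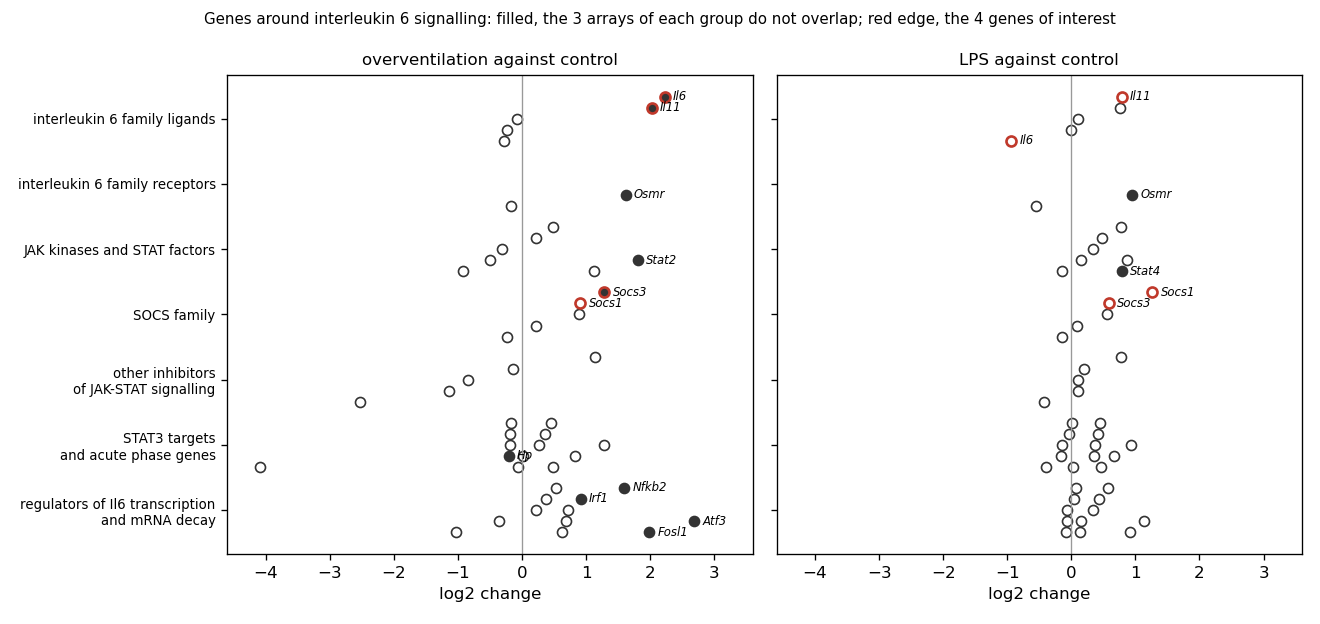
Log2 changes of the tested genes of 7 lists around interleukin 6 signalling after overventilation (left) and LPS (right), each against control; vertical position within a list only separates points. Filled points are genes whose groups do not overlap and red edges mark Il6, Il11, Socs1 and Socs3. Both cytokines, Socs3, Osmr, Stat2 and 4 regulators are filled on the higher side at left.

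Genes whose profiles were most like each of the 4 were sought by Pearson correlation over the arrays, which all share the same 3 groups, so these values are descriptions. Over 9 arrays the closest to Il6 were Mrto4, Phf10, Gpatch2l, Acp2 and Snx3, with r between 0.91 and 0.93. Without LPS array 2 none of these 5 was among the closest. Over the remaining 8 arrays Akr1b8, Kti12, Anxa1, Inhba and 4930488L21Rik took their place, with r between 0.97 and 0.99. Anxa1 encodes an anti-inflammatory annexin and Inhba a subunit of activin. The closest to Il11 were Myl4, Samsn1, Eif6, Nfe2l2 and Tnc (r between 0.92 and 0.94). Nfe2l2 encodes the oxidant defence factor NRF2, and Tnc a matrix glycoprotein of injured tissue. Those closest to Socs3 were Smim3, Cflar, Bhlhe40, Ephb4 and Noct (r between 0.94 and 0.96), of which Cflar, an inhibitor of death receptor signalling, had log2 changes of 2.32 after overventilation and 1.43 after LPS. Nnmt, Tra2b, BC005537, Fam104a and Nt5c3 were closest to Socs1 (r between 0.91 and 0.95).

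Markers of other cells were read on the same arrays as mean log2 levels of each list, where fewer cells of a type and less RNA per cell cannot be told apart. All 9 lung epithelial markers with probes were tested, and their mean lay between -0.40 and 1.46 after overventilation, -0.10 and 0.47 after LPS and -0.31 and 0.31 in controls. Between overventilation and control 2 of the 9 had no overlap, in opposite directions. Over all tested probes the shares were 9.18% on the higher side and 10.5% on the lower. Ager, a marker of alveolar type I cells, was higher with a log2 change of 2.27, and Napsa, an aspartic protease of type II cells, was lower with -2.13 (limma, adjusted p = 0.246 and 0.193), while a second Napsa probe had 0.48. Both were picked for that pattern.

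The 6 macrophage and monocyte markers had mean levels of -0.25 to 0.73 after overventilation, -0.77 to 0.98 after LPS and -0.58 to 0.70 in controls. Adgre1 was at the floor on all 9 arrays. Individual members went both ways after overventilation. Lyz2 was at 2.56, Cd14 at -1.11 and Chil3 at -1.10, all 3 picked after their values were known. Lyz2 was the 1 of the 6 markers without overlap with controls. Over all tested probes 9.18% were higher without overlap and 10.5% lower. On overventilation array 3 Lyz2 lay at 4.77, against 1.73 and 1.19 on arrays 1 and 2, and this was a lone high value of that array, as were those of Ager, Sftpd and Acta2. The 4 neutrophil markers had mean levels of -0.83 to -0.11 after overventilation, -0.62 to -0.39 after LPS and -0.48 to 0.27 in controls, with Mmp9 at the floor throughout.

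The 6 fibroblast and smooth muscle markers lay between -0.67 and -0.02 after overventilation, -0.58 and -0.01 after LPS and -0.13 and 0.11 in controls. Of the 6, 5 had lower means than control after overventilation (median log2 change -0.53) and 5 after LPS (median -0.46). The 5 endothelial markers lay between -0.05 and 0.00, -0.56 and 0.27, and -0.21 and 0.28 in the same order of groups, with Cdh5 at the floor on all 9 arrays. The means of the 6 lymphocyte markers did not overlap between overventilation, at -0.39 to -0.06, and LPS, at 0.03 to 0.50. Controls lay at -0.23 to 0.36. All 6 had lower means after overventilation than after LPS, but none of them was without overlap on its own. Over all tested probes 5.73% were higher without overlap in that comparison and 5.46% lower. How often the mean of such a list separates was not computed.

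The 3 adipose markers lay between -2.41 and -0.93 after overventilation, -4.52 and -1.67 after LPS and -1.75 and 1.04 in controls. All 3 had lower means than control in both treated groups (median log2 changes -1.46 and -2.98), 1 without overlap after overventilation and 2 after LPS. Over all tested probes 10.5% were lower without overlap after overventilation and 9.18% higher. After LPS these shares were 4.08% and 2.24%. The single red blood cell marker lay between -3.24 and -0.52 after overventilation, -2.69 and 1.32 after LPS and -2.15 and 2.18 in controls. The part of these cells in the levels of Il6, Il11, Socs1 and Socs3 was not tested.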

How the data were processed

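RNA of mouse lung was measured on 9 arrays, 3 per group. Neither the array's maker nor the steps before deposit are named in the labels. Per the file headers the table has 1 column per sample, and the deposited values are ratios: the mean log2 ratio of the 3 controls was 0 at each of 10012 probes, to within 2.5e-09. Scaling between arrays stays unknown, and each array has a floor, seen at 4690 probes where 2 or more arrays share its pattern (tolerance 1e-06). At those probes each lower value was raised to the probe's level at the highest array floor, that of overventilation array 3. This is a ratio of 2.22 at probes where all 9 arrays lie at the floor, and another ratio at other probes. Ratios to the control mean were then taken again. A probe was tested if above its raised floor on 3 or more arrays or if its floor is unknown, which left 5710. No value column was left unused.

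Log2 ratios were fitted with limma 3.58.1 in R 4.3.3 on 3 groups (two-sided, Benjamini-Hochberg over tested probes, threshold 0.05). The fit was tested on simulated data. The samples share numbers across groups, with no block in the fit. Same-numbered deviations from group means correlated at 0.50, 0.25 and 0.20 between the LPS and control groups. As each exceeds 0.1, values with array number as a block, over all 3 groups, are given beside the unblocked ones. For overventilation the correlations were 0.51, 0.13 and 0.03 with control, and 0.50, 0.21 and 0.04 with LPS. Arrays numbered 1 thus had 0.50 or 0.51 in every comparison. Differently numbered arrays were not compared, so whether the samples are paired was not tested. Members, 7 pathway lists and 8 marker lists were chosen with earlier results of these data known. Named genes are the members, the 2 other genes of each list with the smallest p after overventilation and after LPS, and the 5 most correlated genes per member. Symbols came from the platform table (8983 probes with 1 symbol, 1 with several, 1028 with none), and promoter windows from RefSeq (GRCm38.p6), where all 4 genes were found.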

Additional observations from a re-analysis of the deposited data

How the results depend on the processing

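The 12 differences of the 4 genes were recomputed under 18 alternatives each, and 19 for Il6, covering normalization, filter, floor, weights, the groups fitted and each array left out. Direction and side of the threshold held in 215 of 219 recomputed values. For many of these the direction could not change. The log2 change stays the same with the replicate block, with only the groups compared, or without an array of the group not compared. It was also the same for the 4 genes without the filter or the common floor. In those cases only the adjusted p could move, so the count overstates how far direction was checked. The exceptions were the log2 change of Il6 between LPS and control, -0.94, which turned to 0.31 with the value of LPS array 2 missing or the array left out and to 0.017 with array weights (range with 1 array left out -2.11 to 0.31), and Il11 between overventilation and control, whose range with 1 array left out was 1.69 to 2.44, with adjusted p = 0.0463 without overventilation array 2. With the replicate block the changes were the same, and adjusted p between overventilation and control was 0.221 for Il6, 0.122 for Il11, 0.206 for Socs1 and 0.19 for Socs3, with 0.899, 0.826, 0.826 and 0.871 between LPS and control, so no call changed. With 1 array left out, the log2 change of Socs1 ranged from 0.36 to 1.43 between overventilation and control, and that of Il6 between overventilation and LPS from 1.92 to 4.34. Counts of called probes were 0 throughout except with 1 array left out, where they ranged from 0 to 290 for overventilation against control, 0 to 1 for LPS against control and 0 to 226 for overventilation against LPS, and 6 for overventilation against control with the highest floor a probe's values allow, an alternative chosen after seeing the data. That floor gave log2 changes between overventilation and control of 2.23 for Il6, 1.54 for Il11, 0.19 for Socs1 and 0.93 for Socs3. Quantile normalization gave 1.66, 1.61, 0.90 and 1.08, and an offset of 1 in place of the floor 1.51, 1.32, 0.47 and 0.78, in the same order. Apart from the missing or left-out LPS array 2, the cause of these shifts was not tested. The counts without overventilation array 3 or LPS array 2 were also added after seeing the data. The number of arrays limits the precision, and only a lowest possible distance from the floor is known for the 4 probes.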
